A study of Mus musculus with 8 samples.

Results

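Expression of 10 genes that write, maintain, read or remove DNA methylation was examined in mouse acute myeloid leukemia (AML) cells driven by MLL-AF9, a fusion of the genes Kmt2a and Mllt3. The genes were taken by name and comprised the DNA methyltransferase genes Dnmt1, Dnmt3a and Dnmt3b, the UHRF genes Uhrf1 and Uhrf2, the TET genes Tet1, Tet2 and Tet3, the glycosylase gene Tdg and the reader gene Mbd2. All 10 were found among the 12823 rows of the count table, and all 10 passed the filter on low counts. RNA came from GFP+ leukemia cells sorted from the bone marrow of C57BL/6 mice, after MLL-AF9 and GFP had been introduced together into bone marrow progenitors. The new AML group comprised 4 libraries of leukemia cells soon after their generation. The study describes these cells as collected from moribund mice that had received sublethal irradiation before transplantation. The aggressive AML group comprised 4 libraries of cells described as descended from the same leukemia after 5 serial transplantations into recipients that were not irradiated. Every library thus carried the fusion and the GFP reporter, and the comparison asked which genes differed after serial transplantation through mice with a normal immune system. Libraries of a group were labelled as biological replicates, and the study describes the mice of both groups as male, with n = 4 per group. No label tied a library to a named mouse, and p-values measure only the spread between these libraries.

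DNA methylation in mammals is placed mainly on the cytosine of CpG dinucleotides. DNMT3A and DNMT3B place it on unmethylated DNA, and DNMT1 copies it onto the new strand after replication with the help of UHRF1, which binds hemimethylated CpGs. TET enzymes oxidise the methyl group, TDG excises some of the oxidised bases so that repair restores a plain cytosine, and proteins such as MBD2 bind methylated CpGs and bring repressive complexes. DNMT3A and TET2 are among the genes most often mutated in human AML, and both restrain the self-renewal of blood stem cells. Only RNA was measured here, and methylation itself was not analysed.

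Libraries held between 7805544 and 9697777 counts in all. Levels are given in CPM, counts scaled to a common library size, in which 1 count equals 0.103 to 0.130 CPM. All 17 myeloid leukemia markers were in the table, among them Mpo at 2399 and 2092 CPM and Hoxa9 at 301 and 322 CPM (means of new and aggressive AML). Presence in the table means only that a gene was not dropped as weakly expressed, so it does not establish the labelled cell type. Their levels were not alike in the groups, since 4 of the 17 were called higher and 5 lower in aggressive AML, or 52.9% beside 18.2% of all genes. Of 12 T cell markers 3 were in the table, and these did not include Cd3e or Trac. Their summed level was 9.25 to 12.7 CPM in new AML and 24.7, 25.2, 12.6 and 23.3 CPM in aggressive AML replicates 1 to 4. Of the 3, 1 (Cd5) was called higher, or 33.3% beside 18.2% of all genes. Of 9 NK cell markers 2 were in the table, and these did not include Ncr1 or Prf1. Their sum was 15.0 to 27.8 CPM in new AML and 25.8 to 33.01 CPM in aggressive AML. The 2 went opposite ways, with log2 fold changes of -0.37 and 0.70. Only the latter (Nkg7) was called higher, or 50% beside 18.2% of all genes. Summed neutrophil markers were higher in every new AML library (369 to 555 CPM) than in every aggressive one (246 to 337 CPM), and so were summed macrophage markers (211 to 255 against 157 to 209 CPM) and B cell markers (40.9 to 47.6 against 32.8 to 36.3 CPM). The most abundant of each were S100a8 at 117 and 64.7 CPM, Cd68 at 142 and 126 CPM and Cd79b at 36.3 and 32.1 CPM. Cd79b thus made up most of the B cell sum, and it was not called (edgeR adjusted p 0.224). Of 10 B cell markers 5 were in the table and 3 were tested, of which 1 was called lower (33.3%). Of 5 macrophage markers tested 2 were called lower (40%), beside 18.2% of all genes called. The neutrophil markers did not all go with their sum, since 8 of 14 were called lower in aggressive AML and 2 higher, or 71.4% beside 18.2% of all genes. The Y-linked genes Ddx3y, Eif2s3y, Kdm5d and Uty together had 2315 to 2574 counts in each new AML library and 0 counts in each aggressive one. The labels do not mention this difference, and the study describes the aggressive cells as grown from the new ones. A different donor, a lost Y chromosome, an unrecorded batch, irradiation of the recipient mice and serial transplantation cannot be told apart in any difference below. Aggressive AML replicate 3 had the lowest total count and stood apart from its group, with root mean square log2 differences of 0.389 to 0.398 from the other 3 libraries, against 0.282 to 0.310 among those.

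Of the 10 genes, 1 was higher in aggressive AML, 1 was lower and 8 did not pass the test. Tdg rose 1.37-fold and Uhrf2 fell to 0.779 of its level. A gene was called when its Benjamini-Hochberg adjusted p, from edgeR's quasi-likelihood test over all 12494 genes tested, was under 0.05. This made 20% of the 10 genes called, beside 18.2% of all genes tested, which is a share near that background (higher 8.04% and lower 10.2% of all genes). Values of the groups did not overlap for 3 of the 10 genes, or 30%, beside 21.8% of all genes. Of these 3, 1 was higher beside 9.76% of all genes, and 2 were lower beside 12% of all genes. The log2 fold change, aggressive over new AML, was below 0 in 8 of the 10 genes, beside 6237 of all 12494 genes tested. Its median was -0.11 beside 0.00 over all genes tested. For 7 of the 8 genes not called the 95% interval lay within 1 log2 unit of 0, and the exception was Tet1.

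**Figure D1:**
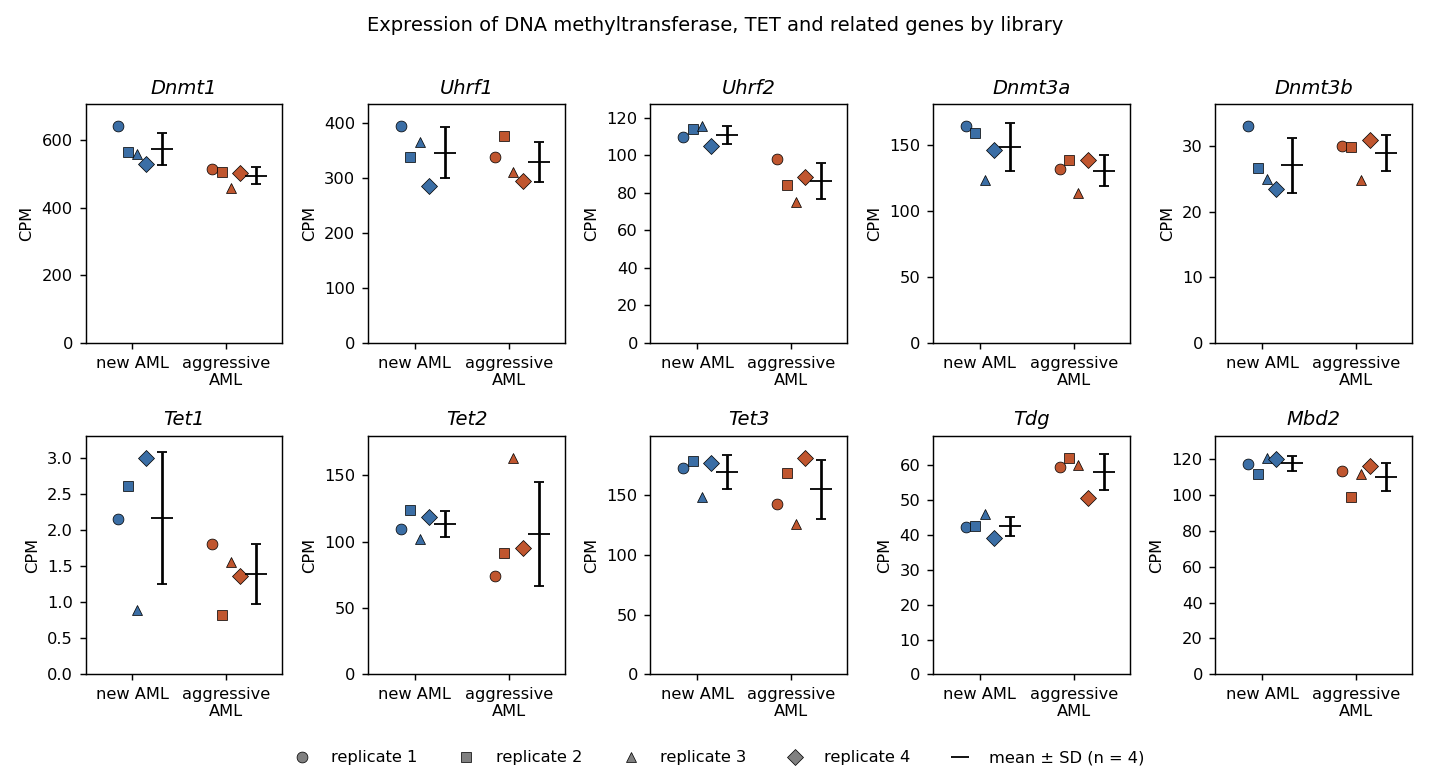
CPM (vertical axes, each starting at 0) of the 10 genes in the 4 new AML libraries (blue) and the 4 aggressive AML libraries (orange), with marker shape for the replicate number and black bars for mean ± SD. The groups are apart for Dnmt1, Uhrf2 and Tdg, and aggressive AML replicate 3 is the highest library for Tet2 at 163 CPM.

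Per length of annotated exon, Uhrf1 and Dnmt1 stood highest, with means over the 8 libraries of 79.2 and 72.5 RPKM, a CPM value divided by kilobases of exon. Their ranges overlapped in both groups. Mbd2 followed at 35.3 RPKM, below every value of Dnmt1 and above every value of Uhrf2 in both groups. Uhrf2 (11.5 RPKM), Tet3 (9.704), Tdg (9.36) and Dnmt3a (8.40) formed a middle range in which neighbours were not in the same order in both groups. In new AML, Tdg lay below every Tet3 value and overlapped Dnmt3a, whereas in aggressive AML it overlapped Tet3 and lay above every Dnmt3a value. Tet2 (6.50 RPKM) and Dnmt3b (5.48) overlapped in both groups, and Tet1 was lowest at 0.115 RPKM. RPKM values rest on the union of GENCODE exons of a gene, so that unused exons lower them.

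Dnmt1 encodes the maintenance methyltransferase and lies on the minus strand of chromosome 9 (chr9:20907209-20959888, GRCm38). It had 642, 565, 559 and 531 CPM in new AML replicates 1 to 4 and 515, 506, 459 and 503 CPM in aggressive AML replicates 1 to 4. Every new AML library was thus above every aggressive one, with new AML replicate 4 and aggressive AML replicate 1 nearest to each other. Means were 574 ± 47.4 and 495 ± 24.99 CPM (SD, n = 4), the log2 fold change was -0.21 with a 95% interval of -0.37 to -0.05, and the edgeR adjusted p of 0.0573 missed the threshold. Whether Dnmt1 was called depended on the method and on 1 library. Its adjusted p was 0.0419 with DESeq2, 0.0472 with total-count scaling, 0.0461 with a replicate block and 0.0448 without new AML replicate 4, within a range of 0.0419 to 0.171 over all alternatives.

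UHRF1 recruits DNMT1 to newly replicated DNA, and its gene lies on chromosome 17 (chr17:56303321-56323486, plus strand). Uhrf1 had 394, 338, 365 and 286 CPM in new AML and 337, 376, 310 and 293 CPM in aggressive AML. The groups overlapped over nearly their whole range, the log2 fold change was -0.07 (-0.28 to 0.14) and the edgeR adjusted p was 0.665. Both genes are expressed with DNA replication and are known targets of E2F factors, so their promoters were searched for E2F-type words. The words were TTTCCCGC, TTTCGCGC, TTTGCCGC and TTTGGCGC, on both strands. They were present in 1.86% of 32851 windows of 250 bases before a RefSeq transcript start (GRCm38.p6), and, among 14 windows of 9 of the 10 genes, in 1 window of Dnmt1 and 1 of Uhrf1. Each word holds a CpG, and these windows held 26 and 30 CpGs beside a median of 6 over all windows. The share over all windows is therefore no like background for them. No window of Mbd2 was in the table used. The words are in capitals in these 30-base stretches, each read 5′ to 3′ on the strand of its gene, at chr9:20952824-20952853 (minus strand, within an annotated exon) and chr17:56304117-56304146 (plus strand, outside annotated exons). A match describes the sequence and shows no binding.
Dnmt1: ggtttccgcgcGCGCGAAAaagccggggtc
Uhrf1: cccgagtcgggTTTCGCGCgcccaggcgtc

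Uhrf2 is the paralogue of Uhrf1 and binds hydroxymethylated DNA, and it cannot take the place of Uhrf1 in maintenance methylation. The gene lies on chromosome 19 (chr19:30030513-30093722, plus strand). It had 110, 114, 116 and 105 CPM in new AML and 98.1, 84.0, 75.2 and 88.6 CPM in aggressive AML. All 4 aggressive libraries were below all 4 new ones, and aggressive AML replicate 3 was lowest. Means were 111 ± 4.83 and 86.5 ± 9.54 CPM (SD, n = 4). Uhrf2 fell by 0.36 on the log2 scale (SE 0.09, 95% interval -0.55 to -0.17), with an edgeR adjusted p of 0.00881. The call was made in 8 of 8 fits that left out 1 library, at adjusted p from 0.00549 to 0.0334. Within the pair, Uhrf2 took 21.8% to 26.8% of the counts in new AML and 18.3% to 23.2% in aggressive AML, so the shares overlapped while the CPM values did not. Fewer cells of a type and less RNA per cell cannot be told apart in such libraries, for this gene or any other. Neutrophil and macrophage marker sums were also lower in aggressive AML, and their part in this difference was not tested.

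Dnmt3a and Dnmt3b encode the de novo methyltransferases. Dnmt3a (chr12:3806007-3914443, plus strand) had 165, 159, 124 and 146 CPM in new AML and 132, 139, 114 and 139 CPM in aggressive AML. The groups overlapped, and in each of them replicate 3 was lowest. The log2 fold change was -0.18 (-0.38 to 0.02) with an edgeR adjusted p of 0.199. An antisense gene, Dnmt3aos, overlaps an exon of Dnmt3a, and the strand setting of the counting was not given, so reads of the pair cannot be told apart.

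Dnmt3b (chr2:153649450-153687730, plus strand) was lower in mean RPKM than Dnmt3a. It was at 33.1, 26.6, 24.98 and 23.5 CPM in new AML and 29.99, 29.8, 24.9 and 31.0 CPM in aggressive AML. The highest value was in new AML replicate 1, and the log2 fold change of 0.10 (-0.17 to 0.36) had an edgeR adjusted p of 0.642. As a share of the counts of Dnmt3a and Dnmt3b together, however, Dnmt3b took 16.7%, 14.3%, 16.8% and 13.8% in new AML and 18.5%, 17.7%, 17.9% and 18.2% in aggressive AML. All aggressive libraries were above all new ones in this share. The means were 15.4% ± 1.55 and 18.1% ± 0.360 (SD, n = 4), a difference of 2.67 percentage points that lay between 2.15 and 3.13 when 1 library was left out. The same order held for the share of Dnmt3b in all 3 methyltransferase genes, at 3.36% to 3.94% in new AML and 4.16% to 4.60% in aggressive AML. Both shares hold the same Dnmt3a and Dnmt3b counts, so the second is not separate from the first. These shares were described without a test, and the difference in response between Dnmt3a and Dnmt3b was not tested. Dnmt1 held 75.2% to 79.0% of the methyltransferase counts in new AML and 74.7% to 76.8% in aggressive AML, with overlap.

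**Figure D2:**
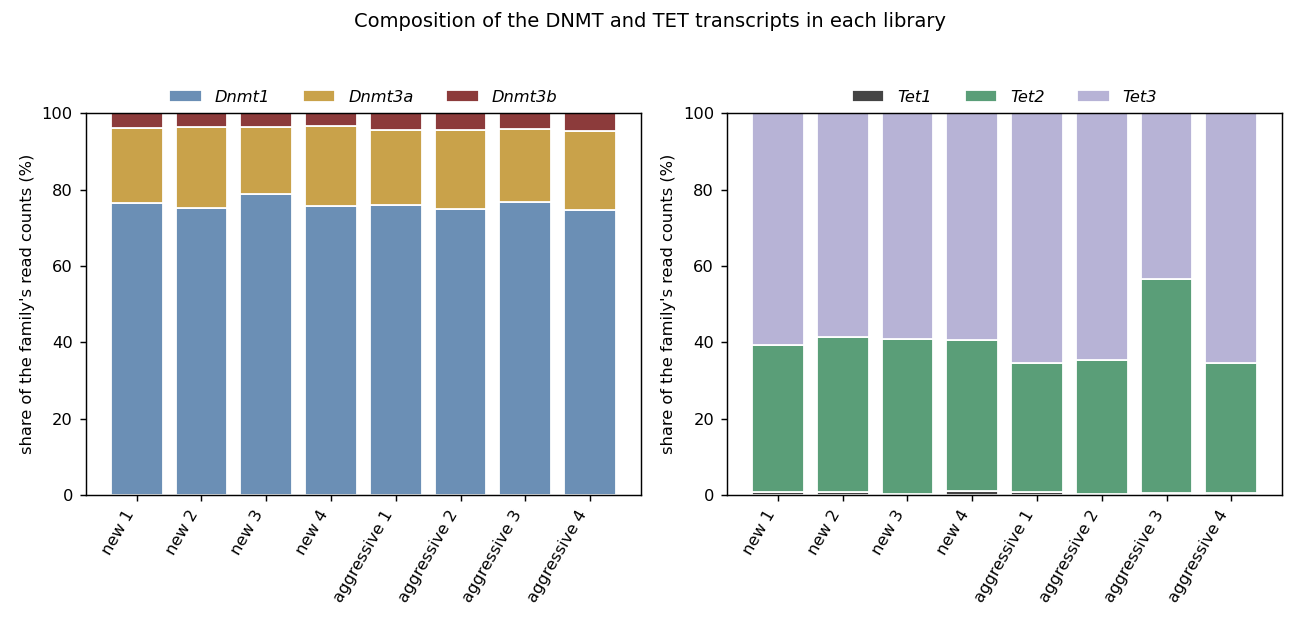
Share (%) of the summed read counts of each family held by Dnmt1, Dnmt3a and Dnmt3b (left) and by Tet1, Tet2 and Tet3 (right), 1 bar per library, not corrected for length. Dnmt1 holds most of its family in every library, and Tet2 holds 56.1% of the TET counts in aggressive AML replicate 3 against 33.8% to 40.6% in the other libraries.

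TET enzymes differed in level and in their spread. Tet1 (chr10:62804570-62908996, minus strand) had 21, 22, 8 and 27 counts in new AML and 15, 7, 12 and 12 counts in aggressive AML, or at most 3.01 CPM. The groups overlapped, and at this depth the log2 fold change of -0.64 had a 95% interval from -1.48 to 0.20 and an edgeR adjusted p of 0.284. A change of 1 log2 unit downwards thus lies within the interval for Tet1, and no difference was detectable at this depth.

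Tet2 (chr3:133463679-133545139, minus strand) had 110, 124, 102 and 118 CPM in new AML and 74.1, 91.3, 163 and 95.1 CPM in aggressive AML. Of the aggressive libraries, 3 were below every new AML library, and replicate 3 was above every one. Means were 113 ± 9.65 and 106 ± 39.3 CPM (SD, n = 4), and the log2 fold change was -0.10 (-0.62 to 0.42) with an edgeR adjusted p of 0.798. Without aggressive AML replicate 3 it was -0.38 with an adjusted p of 0.0103, and Tet2 was then called lower. Without aggressive AML replicate 1 it turned to 0.04 with an adjusted p of 0.917, and adjusted p ranged from 0.0103 to 0.943 over all alternatives. The sign for Tet2 thus turned only without aggressive AML replicate 1, and a call was made only without aggressive AML replicate 3. In aggressive AML replicate 3 the summed T cell markers were at 12.6 CPM beside 23.3 to 25.2 CPM in the other aggressive libraries. The macrophage markers were at 209 beside 157 to 172 CPM and the neutrophil markers at 246 beside 277 to 337 CPM, and their part in the Tet2 value was not tested. Exons of Tet2 overlap those of Gm42567 on the opposite strand.

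Tet3 (chr6:83362373-83459084, minus strand) had the highest mean RPKM of the TET genes. Its levels were 173, 179, 148 and 177 CPM in new AML and 143, 169, 126 and 181 CPM in aggressive AML. Values overlapped, replicate 3 was lowest in both groups, and the log2 fold change of -0.13 (-0.35 to 0.10) had an edgeR adjusted p of 0.433. Tet2 took 38.5% to 40.6% of the TET counts in the 4 new AML libraries. It took 33.8%, 35.0% and 34.2% in aggressive AML replicates 1, 2 and 4, and 56.1% in replicate 3, where Tet3 took 43.4% beside 64.7% to 65.3% in the others. The mean difference in the Tet2 share was -0.07 percentage points with all libraries and -5.51 without replicate 3.

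Tdg encodes thymine DNA glycosylase, which removes the products of TET oxidation and also T mispaired with G. The gene lies on chromosome 10 (chr10:82629828-82650799, plus strand). It had 42.2, 42.7, 45.9 and 39.2 CPM in new AML and 59.4, 62.2, 60.1 and 50.5 CPM in aggressive AML. The lowest aggressive library was above the highest new one. Means were 42.5 ± 2.75 and 58.1 ± 5.16 CPM (SD, n = 4), and the log2 fold change was 0.45 (SE 0.10, 95% interval 0.24 to 0.66) with an edgeR adjusted p of 0.00388. Tdg was called in 8 of 8 fits that left out 1 library, at adjusted p from 0.00204 to 0.0174. This fold change was above that of 90.5% of the genes tested. In aggressive AML, marker sums of neutrophils, macrophages and B cells were lower, the last made up mostly of Cd79b, which was not called. The T cell sum was higher in replicates 1, 2 and 4. The NK cell range was shifted upwards with overlap, though its 2 markers went opposite ways. The part of these markers in the difference of Tdg was not tested.

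Counts of Tdg may include reads from other loci. The processed copy Tdg-ps had 5.56 CPM in new AML and 6.77 CPM in aggressive AML (edgeR adjusted p 0.463), and with its reads added to Tdg the log2 fold change was 0.43 with an adjusted p of 0.00458. An exon of Glt8d2 overlaps Tdg on the opposite strand. Glt8d2 rose from 1.12 ± 0.447 to 5.06 ± 2.19 CPM (SD, n = 4, edgeR adjusted p 0.000618), and how many reads the pair shares was not tested.

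The regions before the starts of the called genes are shown, with CpG dinucleotides in capitals, since these are the sites at which the listed enzymes act. The RefSeq windows (GRCm38.p6) run at chr19:30030263-30030512 for Uhrf2 and, without the bases in an exon, at chr10:82629588-82629827 for Tdg, both on the plus strand.
Uhrf2: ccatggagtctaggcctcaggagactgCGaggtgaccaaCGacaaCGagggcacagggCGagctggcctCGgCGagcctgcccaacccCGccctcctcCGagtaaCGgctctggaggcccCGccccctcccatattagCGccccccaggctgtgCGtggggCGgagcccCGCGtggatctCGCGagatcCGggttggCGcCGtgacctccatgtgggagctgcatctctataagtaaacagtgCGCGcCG
Tdg: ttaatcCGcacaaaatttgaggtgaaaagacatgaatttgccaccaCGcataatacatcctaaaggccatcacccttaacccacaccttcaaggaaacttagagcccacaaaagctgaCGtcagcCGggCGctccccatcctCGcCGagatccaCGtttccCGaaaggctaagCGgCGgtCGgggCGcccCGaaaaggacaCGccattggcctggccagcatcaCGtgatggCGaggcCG

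Uhrf2 had 23 CpGs in its 250 bases and Tdg 19 in its own, of which 18 are in the stretch shown. Over all windows the median was 6 CpGs (quartiles 2 and 16). In the window richest in CpGs, Tet2 had 51, Dnmt3a 40, Uhrf1 30, Dnmt1 26, Dnmt3b 21, Tet3 17 and Tet1 15. Other windows had 7 and 2 CpGs for Dnmt1, 38 and 15 for Dnmt3a and 10 for Uhrf1. Taking the richest window raises the count of a gene with several windows, and the median was taken over all windows without such a choice. The counts of Uhrf2 and Tdg lie inside the range of the genes that were not called.

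Mbd2 (chr18:70568189-70626131, plus strand) binds methylated CpGs and joins the repressive NuRD complex. It had 117, 112, 121 and 120 CPM in new AML and 113, 98.5, 111 and 116 CPM in aggressive AML. Its groups overlapped, with the lowest value in aggressive AML replicate 2. The log2 fold change was -0.10 (-0.26 to 0.07) with an edgeR adjusted p of 0.423, and it had one of the narrowest intervals of the 10 genes.

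**Figure D3:**
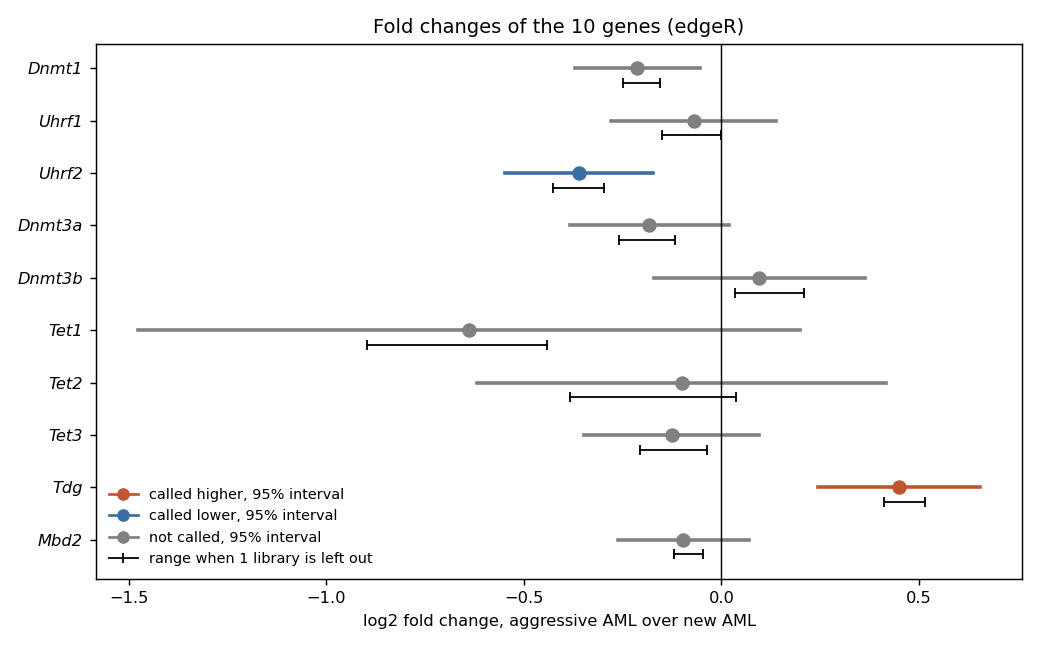
Log2 fold change (aggressive over new AML) of the 10 genes with its 95% interval from edgeR (coloured or grey lines) and the range when 1 library is left out (black bars). Tdg lies above 0 and Uhrf2 below 0 under every omission, the interval of Dnmt1 ends at -0.05, and Tet2 has an omission range from -0.38 to 0.04.

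Genes that work with the methyltransferases gave 2 higher and 1 lower call among 17 tested of 19 listed, or 17.6% beside 18.2% of all genes, with a median log2 fold change of -0.08. Dnmt3l, a catalytically inactive partner that stimulates DNMT3A and DNMT3B, had 6.77, 6.18, 8.48 and 5.80 CPM in new AML and 17.2, 14.7, 16.8 and 12.97 CPM in aggressive AML. Its groups were far apart, and Dnmt3l rose 2.26-fold (log2 1.18, SE 0.17, edgeR adjusted p 0.000153). Its exons overlap Aire on the opposite strand. Trdmt1, formerly Dnmt2, methylates transfer RNA and rose from 11.2 ± 0.844 to 15.4 ± 2.07 CPM (SD, n = 4, adjusted p 0.0426), but the call held in only 2 of 8 fits with 1 library left out, those without new AML replicate 3 or aggressive AML replicate 4 (adjusted p up to 0.116). Zbtb24, mutated in a human syndrome of lost satellite methylation, fell from 24.2 ± 2.07 to 18.1 ± 0.929 CPM (adjusted p 0.0217), and was not called without new AML replicate 1 or 2 or aggressive AML replicate 1 or 2 (adjusted p 0.0530 to 0.0791). The most abundant gene of the list by mean CPM, Trim28, had 545 and 509 CPM and was not called (adjusted p 0.400).

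Readers of methylated DNA and subunits of NuRD gave 1 call among 21 genes, or 4.76% beside 18.2% of all genes, with a median of -0.03. Chd3, a remodelling subunit of NuRD, had 54.6, 65.0, 48.7 and 76.8 CPM in new AML and 9.28, 11.2, 11.3 and 7.85 CPM in aggressive AML. It fell by 2.63 on the log2 scale (SE 0.16, edgeR adjusted p 2.01e-08). Its paralogue Chd4, the most abundant gene of this list, had 614 ± 56.8 and 565 ± 50.01 CPM (SD, n = 4, adjusted p 0.345).

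Among cofactors of TET enzymes and genes of base excision repair, 2 of 19 tested were higher and 0 lower by edgeR, DESeq2 and limma, or 10.5% beside 18.2% of all genes by edgeR, with a median of -0.12. An unadjusted p under 0.05 in the lower direction was found for 2 genes, and the replicate block called 1 of them, Ogt. Cxxc5, a CXXC protein related to a regulator of TET2, rose from 8.56 ± 2.65 to 16.9 ± 1.98 CPM (SD, n = 4, edgeR adjusted p 0.0024). Its exons overlap those of other annotated genes on both strands. Apex1, the endonuclease that acts after TDG, rose from 143 ± 14.3 to 173 ± 15.8 CPM (adjusted p 0.0366). The call for Apex1 was lost in 6 of 8 omissions, all but those of new AML replicate 3 and aggressive AML replicate 4 (adjusted p up to 0.123), and Pip4p1 overlaps it on the opposite strand. Parp1, the most abundant of the list, had 392 and 371 CPM (adjusted p 0.496).

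Enzymes of the methyl donor S-adenosylmethionine and of 2-oxoglutarate, the cosubstrate of TET enzymes, gave 2 higher and 1 lower call among 22 tested of 23 listed, or 13.6% beside 18.2% of all genes, with a median of -0.01. Idh1, which makes 2-oxoglutarate in the cytosol, had 97.8, 111, 107 and 122 CPM in new AML and 88.5, 77.4, 66.3 and 88.8 CPM in aggressive AML. The groups were apart, and Idh1 fell by 0.45 on the log2 scale (SE 0.10, edgeR adjusted p 0.00507). Ahcyl2, a homologue of S-adenosylhomocysteine hydrolase, rose from 34.2 ± 2.07 to 47.2 ± 2.09 CPM (SD, n = 4, adjusted p 0.00285). Sdha, the most abundant, had 305 and 308 CPM (adjusted p 0.916).

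Germline genes that DNA methylation is known to keep silent in somatic cells were mostly outside the table, with 10 of 36 in it and 9 tested. Of these 9, 2 were higher and 1 was lower, or 33.3% beside 18.2% of all genes, with a median of 0.22. A gene near silence in new AML, such as Morc1, could pass the filter on low counts through the aggressive libraries alone. The filter can thus raise the share called in this list, and the 18.2% is no like background for it. Morc1, a germline gene needed to silence transposons, had 3, 7, 12 and 11 counts in new AML and 229, 204, 223 and 224 counts in aggressive AML, a rise of 4.83 on the log2 scale (SE 0.25, edgeR adjusted p 8.23e-10). Stag3, the meiotic cohesin subunit and the most abundant of the list, had 80.6, 84.0, 87.5 and 81.4 CPM in new AML and 183, 191, 236 and 199 CPM in aggressive AML (adjusted p 3.77e-08). Ddx4, a germ cell helicase, moved the other way and fell from 20.5 ± 5.76 to 6.81 ± 1.28 CPM (SD, n = 4, adjusted p 5.76e-05). The genes of this list thus changed in both directions, and methylation of their promoters was not analysed here.

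Imprinted genes, whose expression from 1 parental copy depends on inherited methylation, gave 2 higher and 1 lower call among 19 tested of 44 listed, or 15.8% beside 18.2% of all genes, with a median of 0.03. Igf2r, a receptor that clears IGF2, had 8.93, 14.4, 12.7 and 11.5 CPM in new AML and 3.01, 2.00, 1.55 and 2.73 CPM in aggressive AML. The groups were apart, and Igf2r fell by 2.34 on the log2 scale (SE 0.24, edgeR adjusted p 4.16e-06). Airn overlaps its span on the opposite strand. Cd81, a tetraspanin that lies in an imprinted cluster, rose from 161 ± 12.6 to 204 ± 7.65 CPM (SD, n = 4, adjusted p 0.00492), with R74862 overlapping an exon. Grb10, an adaptor of growth factor receptors, rose from 2.41 ± 0.592 to 4.24 ± 0.672 CPM (adjusted p 0.0496), but without any single library other than aggressive AML replicate 3 it was not called (adjusted p 0.0653 to 0.136), nor under the replicate block (0.0647) or total-count scaling (0.0516). Gnas, the most abundant, had 733 and 680 CPM (adjusted p 0.365).

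Since Dnmt1 and Uhrf1 follow DNA replication, 30 proliferation genes were set beside them, and 1 was higher and 1 lower, or 6.67% beside 18.2% of all genes, with a median of 0.04. Their summed level overlapped between new AML (7174 to 7736 CPM) and aggressive AML (6955 to 7687 CPM). Tk1, the thymidine kinase of S phase, rose from 108 ± 6.84 to 135 ± 9.12 CPM (SD, n = 4, edgeR adjusted p 0.0101), with Afmid overlapping an exon on the opposite strand. Mki67, a marker of cycling cells, fell from 851 ± 46.1 to 697 ± 77.6 CPM (adjusted p 0.0211), and the call was lost without new AML replicate 2 or 4 or aggressive AML replicate 2 or 3 (adjusted p 0.0573 to 0.0714). Top2a, the most abundant of the list, had 980 and 831 CPM (adjusted p 0.0517), and was called lower with DESeq2 (0.0370), with total-count scaling (0.0441) and without new AML replicate 1 (0.0233), within a range of adjusted p from 0.0233 to 0.147.

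**Figure D4:**
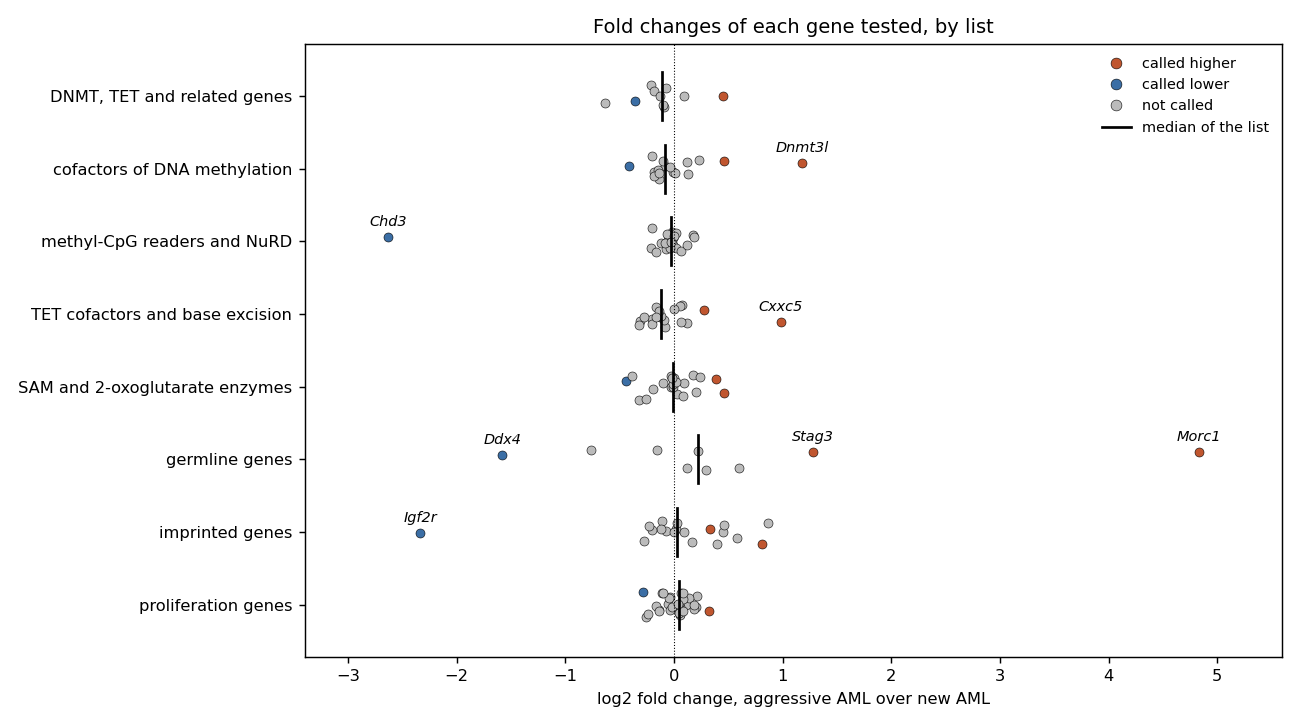
Log2 fold change (aggressive over new AML) of each gene tested, 1 row per list, with genes called higher in orange, called lower in blue, not called in grey and the list's median as a black bar. Medians lie between -0.12 and 0.22, and the values farthest from 0 belong to Morc1 (4.83), Chd3 (-2.63) and Igf2r (-2.34), while all 10 genes of the top row lie between -0.64 and 0.45.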

How the data were processed

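Polyadenylated RNA of sorted GFP+ cells was sequenced by the authors, who aligned reads to the mouse build mm10 with HISAT2, counted them per gene with Rsubread and dropped weakly expressed genes below 1 CPM. The annotation and strand setting are not given in the sources used here. The deposited table holds whole-number read counts that sum to different totals, and was used as raw counts. Sample labels gave the groups and no batch. Genes that reached 1 CPM in 4 or more of 8 libraries were tested (12494 of 12823 rows, 1 of which repeats a name) by edgeR's quasi-likelihood method (edgeR 4.0.16 in R 4.3.3), with trimmed mean of M values (TMM) scaling and Benjamini-Hochberg adjustment over all of them. TMM factors were 0.986 to 1.01 and the common biological coefficient of variation was 0.118. CPM values include these factors, SD is over 4 libraries, and the fit was tested on simulated data.

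Alternatives were DESeq2 (version 1.42.0), limma (version 3.58.1, the tool of the study) with trend on log2(CPM + 1), relative log expression or total-count scaling, no filter, a replicate block, omission of each library and, added after the data were seen, Tdg-ps reads added to Tdg. Counting noise alone did not account for the differences within any pair of replicates. The 10 genes and the gene lists were chosen with earlier results of these data known. Every one of the 10 genes is named, with up to 4 called genes per direction and the most abundant gene of each list (of marker lists only where sums did not overlap), except 1 gene that is not reported here, while Ogt, Cd5, Nkg7, Tdg-ps, Glt8d2, Mpo and Hoxa9 were named after their values were seen. Gene positions and exon lengths are those of GENCODE vM21 (GRCm38, the same build as mm10), and sequences are those of RefSeq (GRCm38.p6).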

Additional observations from a re-analysis of the deposited data

Results flagged for a closer look

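Dixon's test at the 95% level was applied to 84 groups of 4 libraries, and it marked 4, where chance marks about 1 in 20. A library lay far from the rest of its group in the share of Tet2 in the TET counts, at 56.1% in aggressive AML replicate 3 beside 33.8% to 35.0% in the other 3 aggressive libraries. The share of Tet3, which is bound to that of Tet2, was 43.4% in the same library beside 64.7% to 65.3%. Grb10 was at 3.24 CPM in aggressive AML replicate 3 beside 4.46 to 4.67 CPM, a gap worth few counts. Cxxc5 was at 14.0 CPM in aggressive AML replicate 4 beside 17.7 to 18.3 CPM, and all 4 aggressive libraries stayed above the highest new AML library at 11.1 CPM.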

How the results depend on the processing

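Tdg and Uhrf2 were called in the same direction under every alternative run. The number of the 10 genes called was 2, or 3 with DESeq2, total-count scaling or the replicate block, each of which added Dnmt1, and it ranged from 2 to 3 when 1 library was left out. Genes called over the whole table numbered 2278, with 2274 to 2538 under other tools and scalings and 1562 (without new AML replicate 2) to 2391 with 1 library left out. The replicate block gave 5 calls among S-adenosylmethionine and 2-oxoglutarate enzymes in place of 3, and DESeq2 gave 4 among proliferation genes in place of 2. With 1 library left out, calls ranged from 1 to 3 among partners of the methyltransferases, from 1 to 3 among TET cofactors, from 2 to 5 among S-adenosylmethionine and 2-oxoglutarate enzymes and from 1 to 4 among proliferation genes. The cause was not tested. With 1 library left out, the log2 fold change of Tet2 ranged from -0.38 (without aggressive AML replicate 3) to 0.037 (without aggressive AML replicate 1), and that of Sdha from -0.029 (without aggressive AML replicate 1) to 0.074 (without aggressive AML replicate 3). Readers of methylated DNA and germline genes gave 1 and 3 calls in every fit. Deviations of same-numbered libraries were weakly correlated over genes (0.10, -0.04, -0.07 and 0.20 for replicates 1 to 4), beside -0.18 to 0.15 for libraries of different numbers. With so few libraries these values cannot decide whether the numbers pair the libraries. The block moved the count over the whole table to 2417. Tet1 had 7 to 27 counts per library, and its log2 fold change ranged from -0.90 (without new AML replicate 3) to -0.44 (without new AML replicate 4).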
